A study of Mus musculus with 6 samples.

Results

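Pim1, Pim2 and Pim3 encode the PIM serine/threonine kinases, and Socs1, Socs3 and Cish encode members of the suppressor of cytokine signalling (SOCS) family. These 6 genes were followed through 9 cell classes of the mouse lung, in single-cell RNA sequencing of 6 libraries. Their rows were found by symbol in the gene tables of all 6 libraries, where they are 6 of 29492 genes. The set was proposed with the levels of these genes across cell types and groups already known from the same libraries. Their levels, fold changes and counts of calls are therefore a description, and no test is attached to them.

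The lungs came from male C57BL/6J mice aged 12 weeks, with 2 biological replicates per group and 1 library each, and were taken on day 3. The SLC+LPS mice had 7 activations of the SLC, which the series title names as the subcoeruleus nucleus and the design text calls SLC-Gq, together with LPS at 1 mg/kg. The LPS mice had lipopolysaccharide at 1 mg/kg, and the control mice had PBS. All groups thus share strain, sex, age and sampling day, and SLC+LPS and LPS mice share the LPS. The promoter or vector behind the activation, its timing relative to LPS, and what the LPS and control mice carried in its place are not given in the sources used here. SLC activation without LPS is not among the groups, so SLC+LPS against LPS is the comparison that differs by the activation.

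PIM kinases are active as soon as they are translated, so their output is set mainly by how much messenger RNA and protein a cell holds. Cytokines that signal through Janus kinases (JAKs) and STAT transcription factors induce them, and they favour survival, growth and protein synthesis in blood cells. SOCS proteins are induced by the same cytokines and act back on the pathway: SOCS1 inhibits JAK kinases directly, SOCS3 acts at receptors that use the gp130 chain and at the G-CSF receptor, and CIS, the product of Cish, competes at STAT5 docking sites and restrains interleukin 2 and interleukin 15 signals in T cells and natural killer (NK) cells. In neutrophils, G-CSF, GM-CSF and interferons are inducers of these genes.

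STAT dimers bind the palindrome TTCNNNGAA, which reads the same on both strands, so the promoter windows of the members were searched for it to show where the SOCS feedback genes carry the letters. All 6 members matched RefSeq promoter windows of build GRCm38.p6, from 250 bases before to 50 bases after a start site, with 2 windows for Pim1. This build is older than the GRCm39 named for the counts, and the windows were matched by symbol only. The motif was found 2 times in the Cish window, from base 1 and base 12 counted from the start site, and 1 time in the Socs3 window, from base -154. The letters were not found in the windows of Pim1, Pim2, Pim3 or Socs1. Of 32851 mouse windows of the same length, 8.3% held the motif and 0.457% held it at least 2 times. The 30 bases around the matches follow with the motif in capitals, the Cish stretch from chr9:107296654-107296683 on the plus strand and the Socs3 stretch from chr11:117969502-117969531 on the minus strand.
Cish: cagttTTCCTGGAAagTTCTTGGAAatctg
Socs3: agaaaccagccTTCTTAGAAgggagggggg
A match describes the letters and is not evidence that a factor binds there.

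Between 11608 and 13710 cells per library passed the filters, with a median of 1134 to 2606 UMIs (unique molecular identifiers, each one captured RNA molecule). Each cell was assigned to a class by the number of marker genes it held, and 60% to 75.5% of cells were assigned. All fixed markers were higher inside the class than outside it in all 6 libraries for 8 of the 9 classes tested, and 7 of 8 were for alveolar macrophages. The cells were assigned by these same markers, so this outcome was largely set by the assignment and is no independent check of the classes. Neutrophils made up 58% and 49.5% of kept cells in SLC+LPS, 48.9% and 40.3% in LPS, and 17.3% and 14% in control libraries. The second LPS library stands apart: it had the deepest cells (a median of 2606 UMIs), and 3.62% of the UMIs of its NK cells were estimated to be free RNA (RNA in the liquid from broken cells), against 12% to 30.1% in the other 5 libraries. Its NK cells, alveolar macrophages and endothelial cells were also more numerous than those of the other LPS library. Median mitochondrial UMIs were 1.23% to 1.66% in SLC+LPS, 1.43% to 2.86% in LPS and 7.99% to 8.82% in control libraries. Levels are CPM: UMI counts summed over the cells of a class in a library and scaled to the same total in each. Class sums do not tell apart a subset that grows from cells that hold more RNA of the gene. Fold changes are log2 values from edgeR, which rescales the libraries (TMM), so they can differ from the ratio of the CPM levels. Their standard error (SE) was derived from the fold change and its F statistic.

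**Figure D1:**
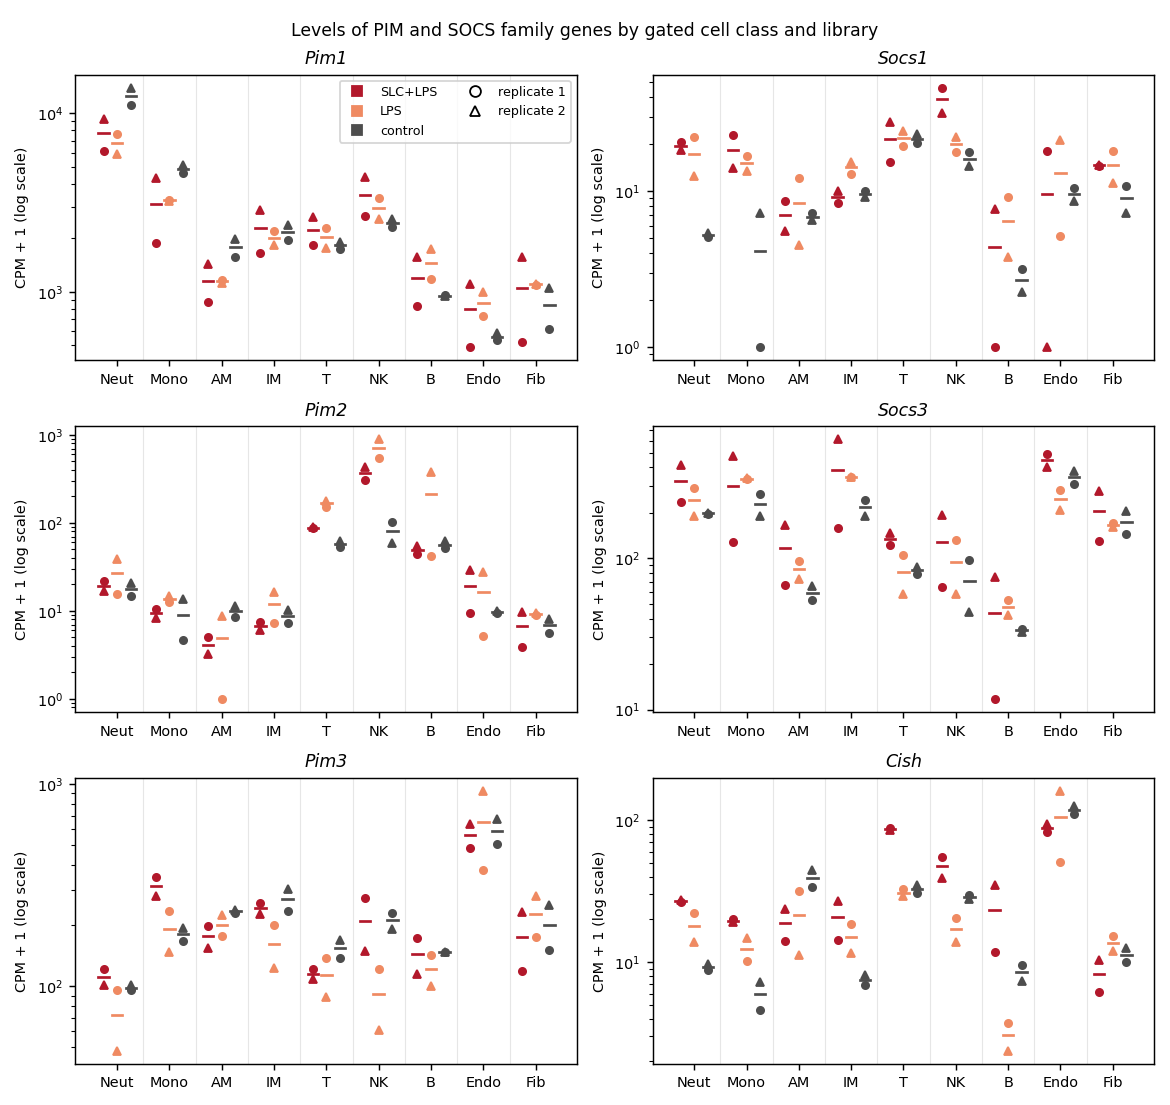
Level of each gene in 9 cell classes, as CPM + 1 on a log scale; each point is a library, each bar the mean of 2 libraries, and SLC+LPS, LPS and control run from left to right within a class (Neut, neutrophil; Mono, classical monocyte; AM and IM, alveolar and interstitial macrophage; T, NK and B, lymphocytes; Endo, endothelial cell; Fib, fibroblast). By mean level, Pim1 is highest in neutrophils, Pim2 in NK cells, and Pim3 in endothelial cells in each group. In the control group the Pim2 levels of NK cells overlap those of T cells.

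Pim1 was one of the most abundant transcripts of lung neutrophils. It made up 0.615% and 0.923% of neutrophil UMIs in SLC+LPS, 0.765% and 0.589% in LPS and 1.11% and 1.39% in control libraries, which placed it between rank 5 and rank 14 of all genes in the 6 libraries. The level was 6151 and 9229 CPM in SLC+LPS neutrophils, 7645 and 5893 CPM in LPS neutrophils, and 11118 and 13912 CPM in control neutrophils. Neutrophils of both control libraries were above all 4 treated libraries, and SLC+LPS and LPS libraries overlapped. On the log2 scale the difference was -0.77 ± 0.38 (SE) for SLC+LPS minus control, -0.75 ± 0.38 for LPS minus control and -0.02 ± 0.38 for SLC+LPS minus LPS. A Pim1 UMI was found in 95.4% and 98.9% of SLC+LPS neutrophils and in 99.6% and 99.7% of control neutrophils.

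Pim1 was lower than in controls with no overlap of libraries in classical monocytes and alveolar macrophages too. Of all genes in SLC+LPS, 26.2% in neutrophils, 24% in classical monocytes and 37.6% in alveolar macrophages were lower than control without overlap. In LPS these shares were 29.4%, 21.1% and 35.6%. The log2 differences of Pim1 from control were positive in T, NK, B and endothelial cells and fibroblasts for both treated groups. Classical monocytes held 1871 and 4350 CPM in SLC+LPS, 3278 and 3215 CPM in LPS and 4622 and 5123 CPM in control libraries. Alveolar macrophages held 875 and 1433 CPM in SLC+LPS, 1165 and 1117 CPM in LPS and 1559 and 1978 CPM in control libraries. In these macrophages 31.7% and 38% of the SLC+LPS level and 21.1% and 27% of the control level were expected from free RNA. NK cells, where Pim1 was next after neutrophils or after classical monocytes in each group, held 2639 and 4363 CPM in SLC+LPS, 3344 and 2560 CPM in LPS and 2302 and 2564 CPM in control libraries. Over the 9 classes the log2 difference ranged from -0.78 to 0.61 for SLC+LPS minus control, from -0.75 to 0.81 for LPS minus control and from -0.29 to 0.24 for SLC+LPS minus LPS, where the libraries overlapped in all 9 classes.

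Pim2 showed the widest difference of the 6 genes, in NK cells. The level was 308 and 436 CPM in SLC+LPS, 547 and 888 CPM in LPS, and 101 and 58.7 CPM in control NK cells. The 3 groups did not overlap, with LPS highest and control lowest. These levels rest on 34 and 114 Pim2 UMIs in 73 and 135 SLC+LPS cells, 226 and 1573 UMIs in 168 and 570 LPS cells, and 84 and 26 UMIs in 481 and 302 control cells. On the log2 scale the difference was 2.29 ± 0.37 (SE) for SLC+LPS minus control, 3.24 ± 0.37 for LPS minus control and -0.95 ± 0.35 for SLC+LPS minus LPS. Without the second LPS library, LPS minus control was 2.82 ± 0.33, and without the first it was 3.55 ± 0.31.

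The share of NK cells with at least 1 Pim2 UMI followed the same order. It was 31.5% and 43.7% in SLC+LPS, 58.3% and 68.2% in LPS, and 12.3% and 6.29% in control libraries. With every cell thinned to 500 UMIs, so that depth was equal, the share was 14.1% and 19% in SLC+LPS, 21.9% and 31.4% in LPS, and 4.3% and 2.62% in control libraries. The order held at equal depth. In neutrophils, where Pim2 was low, the thinned share was 0.751% to 1.06% in SLC+LPS, 0.691% to 1.58% in LPS and 0.606% to 1.01% in control libraries. Before thinning, the median depth per library was 1459 to 2569 UMIs in treated and 1244 to 1514 UMIs in control NK cells, against 1054 to 2410 and 1049 to 1351 UMIs in neutrophils. Free RNA was expected to give at most 1.89% of the NK level in SLC+LPS, 0.568% in LPS and 11.1% in control libraries.

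Among the transcripts of the 3 PIM genes in NK cells, Pim2 made up 9.58% and 8.8% in SLC+LPS, 13.6% and 25.3% in LPS and 3.84% and 2.09% in control libraries. Pim1 was the largest of the 3 in every library, from 73% to 91.1%. Markers of other classes moved with the groups in the NK gate. The summed level of the neutrophil list, with 8 of 8 markers detected in each group, was 363 to 821 CPM in SLC+LPS, 200 to 550 CPM in LPS and 161 to 180 CPM in control NK cells. The summed T cell list was 154 to 229 CPM in SLC+LPS with 4 of 8 markers detected, 99.3 to 165 CPM in LPS with 7 of 8, and 67.7 to 107 CPM in control with 7 of 8. Pim2 itself was lower in neutrophils (13.7 to 37.4 CPM over 6 libraries) and in T cells (52.5 to 179 CPM) than in the treated NK cells. The part of RNA or cells of other classes in the Pim2 difference of the NK gate was not tested.

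T cells showed Pim2 in the same order at lower levels. They held 86.7 and 88.2 CPM in SLC+LPS, 152 and 179 CPM in LPS, and 52.5 and 61.4 CPM in control libraries. No libraries of different groups overlapped. On the log2 scale the fitted difference was 0.64 ± 0.31 (SE) for SLC+LPS minus control, 1.57 ± 0.27 for LPS minus control and -0.92 ± 0.29 for SLC+LPS minus LPS. T cells with the Cd8 markers held 230 and 130 CPM in SLC+LPS, 162 and 138 CPM in LPS and 61.9 and 92.4 CPM in control libraries, from 5 to 52 UMIs a library. CD4 T cells without Foxp3 held 15.7 and 40 CPM in SLC+LPS, 110.2 and 169 CPM in LPS and 31.3 and 57.7 CPM in control libraries, from 1 to 31 UMIs a library. In these CD4 cells SLC+LPS was below LPS with no overlap and overlapped control, whereas in CD8 cells it overlapped LPS and was above control. CD8 T cells made up 10.1% and 27.7% of T cells in SLC+LPS, 28.6% and 29.9% in LPS and 19.1% in each control library, and their part in the T cell difference was not tested.

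B cells held similar Pim2 levels in 5 of 6 libraries. They had 43.1 and 53.9 CPM in SLC+LPS, 41 and 382 CPM in LPS, and 50.2 and 61 CPM in control libraries. The second LPS library alone was high, with a Pim2 UMI in 31.2% of its B cells against 5.62% to 6.11% in the other 5 libraries. In all 9 classes the fitted log2 difference of Pim2 for SLC+LPS minus LPS was negative, from -2.10 to -0.60. These 9 values come from the same 4 libraries, and without the second LPS library 4 of 8 were negative and 4 positive. In endothelial cells the mean level went the other way, at 18.3 CPM in SLC+LPS and 15.3 CPM in LPS, with overlap of libraries. NK cells stayed lower without either LPS library.

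**Figure D2:**
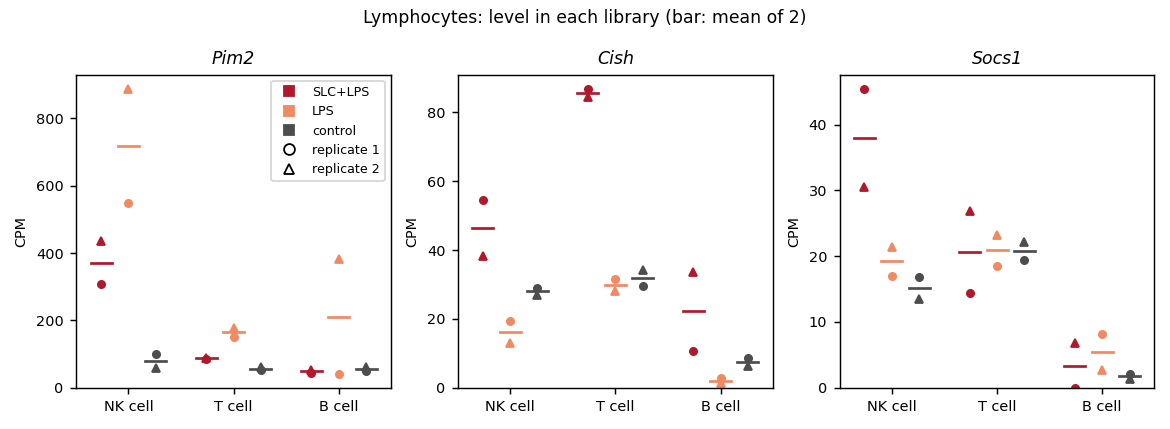
Pim2, Cish and Socs1 in CPM in NK, T and B cells; each point is a library, each bar the mean of 2 libraries, with SLC+LPS, LPS and control from left to right. Pim2 in NK cells is 308 and 436 CPM in SLC+LPS, 547 and 888 CPM in LPS and 101 and 58.7 CPM in control libraries, and Cish in T cells is 86.7 and 84.3 CPM in SLC+LPS against 28.2 to 34.1 CPM in the other libraries.

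Pim3 was most abundant in endothelial cells and had its lowest mean in neutrophils, in each group. Endothelial cells held 485 and 635 CPM in SLC+LPS, 377 and 922 CPM in LPS and 503 and 671 CPM in control libraries. The groups overlapped, and the LPS libraries lay furthest apart. In NK cells Pim3 ran opposite to Pim2 under LPS. NK cells held 272 and 149 CPM in SLC+LPS, 121 and 59.8 CPM in LPS, and 230 and 192 CPM in control libraries. LPS was below the other groups with no overlap, by -1.20 ± 0.37 (SE) on the log2 scale against control, and SLC+LPS minus LPS was 1.20 ± 0.40. SLC+LPS and control overlapped, at -0.01 ± 0.38. Of the 9 classes, Pim3 was higher in SLC+LPS than in LPS with no overlap in 4 (neutrophils, classical monocytes, interstitial macrophages and NK cells) and lower in 0. Over all genes of the 9 classes 17.1% were higher without overlap in that comparison, and 14.9% to 23.2% in those 4 classes. Classical monocytes held 345 and 279 CPM in SLC+LPS, 236 and 147 CPM in LPS and 167 and 194 CPM in control libraries. Neutrophils held 121 and 100 CPM in SLC+LPS, 95.2 and 47 CPM in LPS and 94.4 and 101 CPM in control libraries, with 27.2% to 29.9%, 25.4% to 28.2% and 44.6% to 57.3% of those levels expected from free RNA in the same order of groups.

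Cish differed between SLC+LPS and LPS by the most standard errors of any member and class, in T cells. T cells held 86.7 and 84.3 CPM in SLC+LPS, 31.6 and 28.2 CPM in LPS, and 29.7 and 34.1 CPM in control libraries. Both SLC+LPS libraries were above the other 4, while LPS and control overlapped. On the log2 scale the fitted difference was 1.44 ± 0.38 (SE) for SLC+LPS minus control, -0.08 ± 0.37 for LPS minus control and 1.52 ± 0.38 for SLC+LPS minus LPS. The counts are small: 18 and 22 Cish UMIs in 99 and 137 SLC+LPS cells, 17 and 29 UMIs in 217 and 345 LPS cells, and 26 and 20 UMIs in 398 and 346 control cells. Neither contrast passed the threshold over all genes of the class, and leaving out any 1 library gave 1.39 to 1.60 for SLC+LPS minus LPS.

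The share of T cells with a Cish UMI was 15.2% and 14.6% in SLC+LPS, 7.37% and 7.83% in LPS and 4.77% and 5.49% in control libraries. At 500 UMIs per cell it was 4.52% and 5.28% in SLC+LPS, 1.94% and 1.37% in LPS and 1.42% and 2% in control libraries. The SLC+LPS libraries were again the highest. Other T cell measures moved with the groups. Cells with Foxp3 made up 6.06% and 6.57% of T cells in SLC+LPS, 4.61% and 4.35% in LPS and 1.26% and 2.6% in control libraries, from 5 to 15 cells a library. In CD4 T cells without Foxp3, Cish was 125 and 60 CPM in SLC+LPS, 33.1 and 21.9 CPM in LPS and 26.8 and 38.5 CPM in control libraries, from 3 to 8 UMIs a library. The neutrophil list summed to 337 to 514 CPM in SLC+LPS, 155 to 507 CPM in LPS and 134 to 157 CPM in control T cells, with 8 of 8 markers detected. Cish in neutrophils was 7.9 to 26.4 CPM over the 6 libraries. The part of these measures in the Cish difference of T cells was not tested.

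NK cells showed the same order for Cish between SLC+LPS and LPS. They held 54.4 and 38.2 CPM in SLC+LPS, 19.4 and 13 CPM in LPS, and 28.9 and 27.1 CPM in control libraries, from 6 to 24 UMIs a library. The groups did not overlap, with SLC+LPS above control and LPS below it. The fitted log2 difference was 0.73 ± 0.53 (SE) for SLC+LPS minus control, -0.79 ± 0.49 for LPS minus control and 1.52 ± 0.55 for SLC+LPS minus LPS. Thus in NK cells Pim2 was highest in LPS, whereas Pim3 and Cish were lowest there.

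In neutrophils Cish was 25.7 and 26.4 CPM in SLC+LPS, 21.3 and 12.8 CPM in LPS, and 7.86 and 8.77 CPM in control libraries. The 3 groups did not overlap, with SLC+LPS highest. The fitted log2 difference was 1.56 ± 0.36 (SE) for SLC+LPS minus control, 1.15 ± 0.36 for LPS minus control and 0.41 ± 0.33 for SLC+LPS minus LPS. Of the control level, 83.3% and 95.1% was expected from free RNA, against 15.4% to 15.9% in SLC+LPS and 11.9% to 16.5% in LPS, so the control level was near that of free RNA. With free RNA subtracted the log2 difference was 3.83 for SLC+LPS minus control and 3.35 for LPS minus control. Little control level is left after the subtraction, so the sizes of these subtracted values are no bound. The summed classical monocyte list in the neutrophil gate was 704 to 1919 CPM in SLC+LPS, 1283 to 1304 CPM in LPS and 320 to 338 CPM in control libraries, with 6 of 6 markers detected, and its part in the result was not tested. Cish in classical monocytes was 19.1 and 18 CPM in SLC+LPS, 9.24 and 13.7 CPM in LPS and 3.63 and 6.26 CPM in control libraries, which hold 1 UMI each.

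Alveolar macrophages went the other way for Cish. They held 13.2 and 22.6 CPM in SLC+LPS, 30.9 and 10.3 CPM in LPS and 32.7 and 43.6 CPM in control libraries. Both treated groups were below control with no overlap, although the first LPS library lay close to the lower control, by -1.11 ± 0.48 (SE) for SLC+LPS and -1.15 ± 0.49 for LPS on the log2 scale. The LPS value was -0.19 without the second LPS library and -1.62 without the first. Of all genes of this class, 37.6% in SLC+LPS and 35.6% in LPS were lower than control without overlap. Interstitial macrophages, in contrast, held 13.3 and 26 CPM in SLC+LPS, 17.5 and 10.6 CPM in LPS and 5.86 and 7.06 CPM in control libraries, with 84% and 100% of the control level expected from free RNA. Markers of another class were higher in the treated alveolar macrophage gate: the classical monocyte list summed to 752 to 1141 CPM in SLC+LPS, 422 to 693 CPM in LPS and 125 to 155 CPM in control libraries, with 6 of 6 markers detected, and its part in the result was not tested.

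Endothelial cells held the highest Cish level of the 9 classes in each group, at 81.5 and 93.3 CPM in SLC+LPS, 49.8 and 159 CPM in LPS, and 109 and 124 CPM in control libraries. In the SLC+LPS group T cells overlapped them. The gate for group 2 innate lymphoid cells was higher still in controls, with 356 and 278 CPM from 18 and 14 UMIs in 27 and 37 cells. In that gate 4 of 6 markers were higher than outside it in all libraries, and it held 3 cells in each SLC+LPS library, so it entered no comparison.

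**Figure D3:**
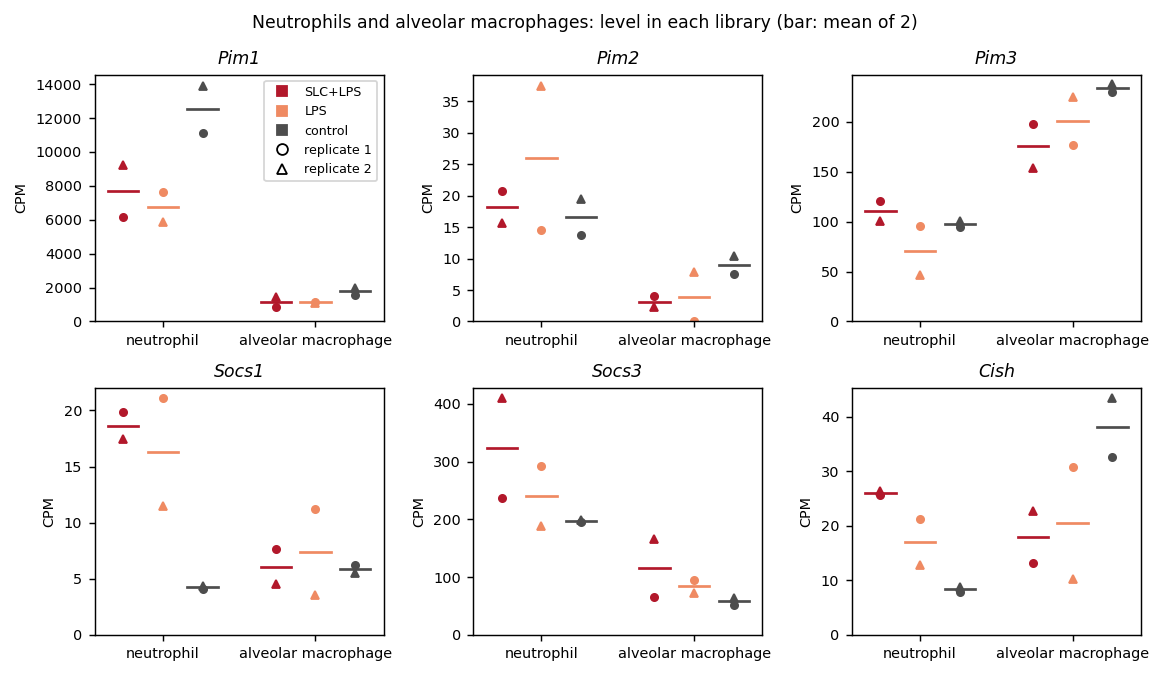
All 6 genes in CPM in neutrophils and alveolar macrophages; each point is a library, each bar the mean of 2 libraries, with SLC+LPS, LPS and control from left to right. In neutrophils Pim1 is lower and Socs1 and Cish are higher in all 4 treated libraries than in both control libraries, and in alveolar macrophages Cish is lower.

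Socs1 was a low transcript in every class, and its largest difference in standard errors was in neutrophils. These held 19.8 and 17.5 CPM in SLC+LPS, 21.1 and 11.5 CPM in LPS and 4.08 and 4.38 CPM in control libraries. The 4 treated libraries were all above both controls and overlapped each other. The levels rest on 243 and 145 UMIs in SLC+LPS, 248 and 144 UMIs in LPS and 14 and 9 UMIs in control neutrophils. The log2 difference was 2.05 ± 0.41 (SE) for SLC+LPS minus control, 2.06 ± 0.41 for LPS minus control and -0.01 ± 0.35 for SLC+LPS minus LPS. A Socs1 UMI was found in 2.73% and 2.2% of SLC+LPS, 3.36% and 2.78% of LPS and 0.638% and 0.516% of control neutrophils. Free RNA was expected to give 54.1% and 44% of the control level and 8.34% to 12.8% of the treated levels.

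In classical monocytes Socs1 had the same direction on few UMIs: 16 and 16 in SLC+LPS, 19 and 30 in LPS, and 0 and 1 in control libraries, or 21.8 and 13.1, 16 and 12.5, and 0 and 6.26 CPM in that order of groups. In NK cells Socs1 was highest in SLC+LPS, at 45.3 and 30.6 CPM, against 17 and 21.4 CPM in LPS and 16.8 and 13.5 CPM in control libraries. The SLC+LPS level rests on 5 and 8 UMIs, and its log2 difference was 1.28 ± 0.63 (SE) against control and 0.84 ± 0.60 against LPS. T cells held 14.4 and 26.8 CPM in SLC+LPS, 18.6 and 23.3 CPM in LPS and 19.4 and 22.2 CPM in control libraries, and the groups overlapped. In B cells neither Socs1 nor Cish passed the filter on low counts, so 52 of 54 pairs of a member and a class were fitted.

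Socs3 was spread over many classes. Among the 9 classes compared, its highest mean was in endothelial cells in SLC+LPS and control libraries and in interstitial macrophages in LPS libraries. Neutrophils held 236 and 410 CPM in SLC+LPS, 292 and 188 CPM in LPS and 195 and 199 CPM in control libraries. The log2 difference was 0.65 ± 0.36 (SE) for SLC+LPS minus control and 0.41 ± 0.36 for LPS minus control. SLC+LPS was above control with no overlap in 4 classes: neutrophils, alveolar macrophages, T cells and endothelial cells. LPS was above control with no overlap in 4 classes as well: classical monocytes, alveolar macrophages, interstitial macrophages and B cells. Over all genes of the 9 classes 23.8% in SLC+LPS and 16.9% in LPS were higher than in control without overlap. Endothelial cells held 489 and 401 CPM in SLC+LPS, 282 and 209 CPM in LPS and 307 and 377 CPM in control libraries, so LPS lay below both other groups. T cells held 120.5 and 146 CPM in SLC+LPS, 104 and 57.3 CPM in LPS and 77.7 and 87 CPM in control libraries. Alveolar macrophages held 65.7 and 165 CPM in SLC+LPS, 95.4 and 72.1 CPM in LPS and 52.4 and 64.4 CPM in control libraries, with 62.9% and 64.1% of the control level expected from free RNA.

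The log2 difference of Socs3 for SLC+LPS minus control was positive in 9 of 9 classes, from 0.35 to 1.06. That count rests on the second SLC+LPS library, which was the higher of the pair in 8 of the 9 classes. Without it 4 classes were positive and 5 negative. In interstitial macrophages the pair stood at 156 and 610 CPM, against 346 and 341 CPM in LPS and 243 and 191 CPM in control libraries.

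**Figure D4:**
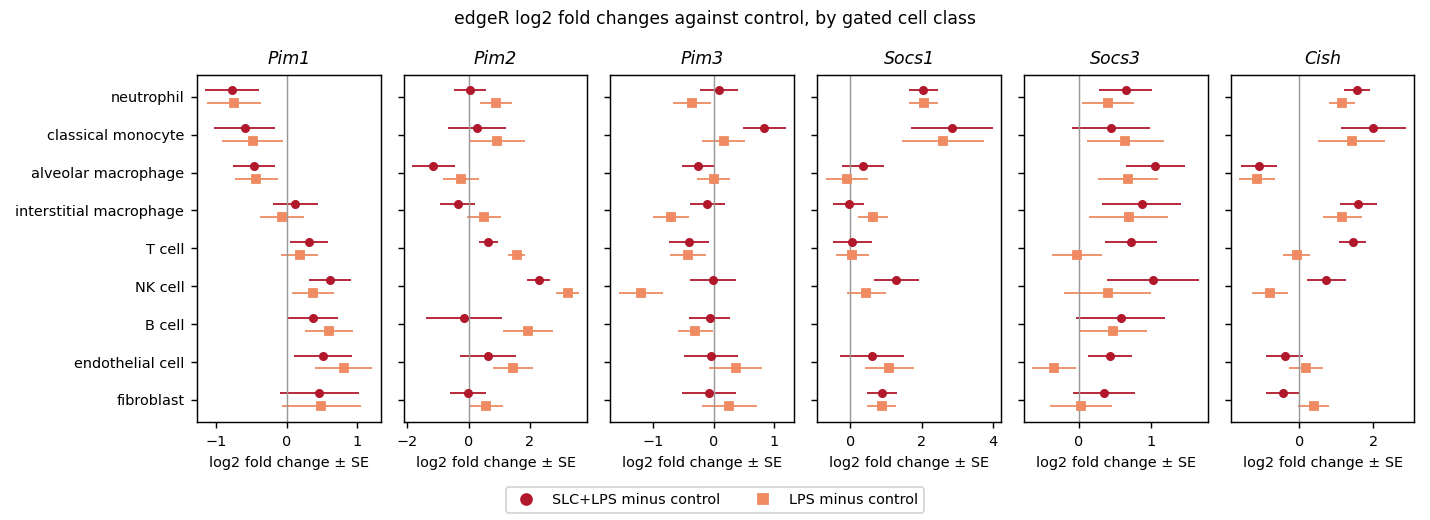
Log2 fold change against control with its SE for each gene, by cell class; circles are SLC+LPS minus control and squares LPS minus control, with SLC+LPS drawn above LPS. Pim2 in NK cells stands furthest to the right within its panel, at 2.29 and 3.24, and the contrasts share the 2 control libraries.

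Of the 52 fitted pairs of a member and a class, 2 passed adjusted p under 0.05 over all genes of their class for SLC+LPS minus control (Socs1 and Cish in neutrophils), 2 for LPS minus control (Socs1 in neutrophils and Pim2 in NK cells), and 0 for SLC+LPS minus LPS by edgeR. At an unadjusted p under 0.05 the last count was 6 pairs, and DESeq2 called 0. Over all genes of the 9 classes the share that passed was 1.41%, 1.24% and 0.00124%, the last being the single gene Slc15a2 in neutrophils, named after its value was seen. Within neutrophils the share was 3.12% for SLC+LPS minus control and 2.31% for LPS minus control, and within NK cells 0.113% for LPS minus control. In the same order of comparisons, the members that passed were 5, 3 and 0 without the second LPS library, 5, 12 and 8 without the first, and 0, 1 and 0 without any 1 of the 2 control or 2 SLC+LPS libraries. Pim2 in NK cells passed for LPS minus control without any 1 of the 6 libraries, and the neutrophil calls of Socs1 and Cish were lost without either control or either SLC+LPS library. Both groups against control rest on the same 2 control libraries.

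The libraries did not overlap and were higher for 17 of 52 pairs in SLC+LPS against control, 18 in LPS against control and 11 in SLC+LPS against LPS. Over all genes of the 9 classes this share was 23.8%, 16.9% and 17.1%. They were lower without overlap for 8, 10 and 5 pairs, where all genes gave 28.7%, 26.4% and 12.3%. The median log2 difference over the members was 0.37, 0.39 and 0.01 in the same order. As the members were chosen on these libraries, nothing is read from these counts.

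The surrounding pathway was described with 72 other genes in 6 lists: JAKs and STATs, other SOCS genes, cytokine receptors, cytokine ligands, other negative regulators of JAK-STAT signalling, and survival and growth genes downstream of STATs. Of 541 fitted pairs of a gene and a class, 14 rose and 1 fell in SLC+LPS against control (2.77%), 12 rose and 4 fell in LPS against control (2.96%), and 0 passed in SLC+LPS against LPS by edgeR, where 47 had an unadjusted p under 0.05 and DESeq2 called 1. All of these calls lay in myeloid classes, and in the 5 other classes few genes of any kind passed (0% in SLC+LPS and 0.0273% in LPS against control, of 40328 pairs of a gene and a class). Without either control library 0 pathway genes passed against control, without the second LPS library the calls were 59, 34 and 1, and without the first they were 60, 90 and 58. The calls for SLC+LPS against control fell to 4 without the first SLC+LPS library and to 1 without the second. None of the 5 other SOCS genes passed in any class. With the estimated free RNA subtracted, 6 pairs passed for SLC+LPS and 7 for LPS against control, but only 1 of the 15 and 1 of the 16 calls above were among them: Bcl2l1, which encodes the survival protein BCL-XL, in SLC+LPS neutrophils and Usp18 in LPS neutrophils, both named after their values were seen. Of the other calls, 1 and 3 were no longer fitted, and 13 and 12 kept their direction at adjusted p from 0.0539 to 0.209 and from 0.0564 to 0.208. The Bcl2l1 call was near the threshold before the subtraction (adjusted p = 0.0462, edgeR). It was lost with the replicate block, the stricter cell filter and the looser and stricter gates.

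In neutrophils 4 of 69 fitted pathway genes rose in SLC+LPS and 5 of 69 in LPS. Csf3, which encodes the neutrophil growth factor G-CSF, was 73.7 and 32.2 CPM in SLC+LPS neutrophils against 7.86 and 7.31 CPM in control neutrophils (log2 difference 2.68 ± 0.50 SE, adjusted p = 0.0354, edgeR). Csf2rb2, a beta chain of the interleukin 3 receptor in mice, rose in SLC+LPS to 316 and 386 CPM against 109 and 124 CPM in control (1.51 ± 0.32, adjusted p = 0.0419). It also passed in LPS neutrophils, at 356 and 311 CPM (1.66 ± 0.32, adjusted p = 0.0334, edgeR). Usp18, an interferon-induced protease that dampens type I interferon receptor signals, rose in SLC+LPS to 31.7 and 81.1 CPM against 9.03 and 11.7 CPM in control (2.40 ± 0.51, adjusted p = 0.0428). In LPS neutrophils Usp18 rose to 105 and 119 CPM (3.62 ± 0.53, adjusted p = 0.0125). Il15ra, the alpha chain of the interleukin 15 receptor, rose in LPS to 59.4 and 59.9 CPM against 16 and 10.7 CPM in control (2.30 ± 0.40, adjusted p = 0.0236), and Il6 to 61.6 and 63.1 CPM against 24.2 and 14.6 CPM (1.83 ± 0.35, adjusted p = 0.0334). In the same neutrophils the 6 classical monocyte markers, all detected, summed to 704 to 1919 CPM in SLC+LPS, 1283 to 1304 CPM in LPS and 320.1 to 338 CPM in control libraries, and their part in these calls was not tested. With free RNA subtracted, Usp18 in LPS was the only one of these named calls to pass. The median log2 difference over the list was -0.07 for SLC+LPS and 0.13 for LPS, beside 0.07 for each over all neutrophil genes.

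In alveolar macrophages 4 of 64 pathway genes rose and 1 fell in SLC+LPS, and 6 rose and 4 fell in LPS, where 3.71% and 5.82% of all genes of the class passed. Ifngr2, a chain of the interferon gamma receptor, rose in SLC+LPS to 68.1 and 104 CPM against 35 and 31.2 CPM in control (log2 difference 1.48 ± 0.32 SE, adjusted p = 0.0351, edgeR). It also passed in LPS, at 89.8 and 68.2 CPM (1.42 ± 0.32, adjusted p = 0.0328, edgeR). Csf3 passed in SLC+LPS, at 6.41 and 4.53 CPM against 0 and 0.325 CPM in control. These levels are near the floor, and the Csf3 call was lost with DESeq2, the replicate block, the stricter cell filter and the looser and stricter gates. In LPS, Il15ra rose to 64.5 and 74.8 CPM against 25.5 and 26.7 CPM in control (1.65 ± 0.30, adjusted p = 0.015), and Usp18 to 11.2 and 13.6 CPM against 1.31 and 1.30 CPM (3.49 ± 0.71, adjusted p = 0.022). Il6st, which encodes gp130, the chain at which SOCS3 acts, fell to 16.8 and 14 CPM in LPS against 67.4 and 56.2 CPM in control (-1.86 ± 0.35, adjusted p = 0.0185). It also passed as lower in SLC+LPS, at 16.8 and 27.2 CPM (-1.48 ± 0.35, adjusted p = 0.046, edgeR). None of these named calls passed with free RNA subtracted. Markers of other classes were higher in this gate too: the neutrophil list, with 8 of 8 markers detected, summed to 970 to 1535 CPM in SLC+LPS, 982 to 1224 CPM in LPS and 440 to 477 CPM in control libraries, and the classical monocyte list moved as given with Cish. Their part in these calls was not tested.

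In interstitial macrophages 5 of 63 pathway genes rose in SLC+LPS and 1 in LPS, where 3.4% and 0.607% of all genes passed. Csf2rb2 rose in SLC+LPS to 279 and 253 CPM against 74.8 and 83.1 CPM in control (log2 difference 1.79 ± 0.23 SE, adjusted p = 0.0206, edgeR), and Csf2rb, the shared beta chain of the GM-CSF receptor, to 313 and 350 CPM against 118 and 98.3 CPM (1.66 ± 0.25, adjusted p = 0.0273). Lif, a ligand of gp130 receptors, rose to 37 and 29 CPM in SLC+LPS (2.02 ± 0.35, adjusted p = 0.0343) and to 56.6 and 38.6 CPM in LPS (2.53 ± 0.35, adjusted p = 0.0433), against 8.11 and 8.69 CPM in control. The neutrophil list in the interstitial macrophage gate, with 8 of 8 markers detected, summed to 1289 to 1414 CPM in SLC+LPS, 1108 to 1176 CPM in LPS and 552 to 645 CPM in control libraries, and its part in these calls was not tested. In classical monocytes 1 of 59 pathway genes passed, Csf2rb2 in SLC+LPS, at 480 and 441 CPM against 109 and 119 CPM in control (2.06 ± 0.37, adjusted p = 0.0496), where 0.376% of all genes passed. This call was lost with RLE factors in place of TMM, with the looser and stricter gates, and with the top 5% of cells by UMIs left out. None of the calls named in interstitial macrophages and classical monocytes passed with free RNA subtracted. No pathway gene passed in T cells, NK cells, B cells, endothelial cells or fibroblasts by edgeR. In those classes 449 to 1225 genes of each class had an unadjusted p under 0.05 in SLC+LPS against control.

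The genes whose levels over the 54 units of class and library were most like those of each member were found among 6303 genes by Pearson's r of log2(CPM + 1). These values are a description: the units share libraries and classes, and no p is given. Pim1 was closest to Stx11 (r = 0.899), Btg1 (0.87) and Nfkbie (0.864). Pim2 was closest to Crem (0.897), Myb (0.882) and Il2ra (0.881). Pim3 was closest to Fkbp1a (0.802), Klf4 (0.793) and Ctnna1 (0.754). Socs3 was closest to Xdh (0.841), Ifitm3 (0.798) and Rnd1 (0.78). Cish reached 0.728 with Myl12a, 0.718 with Gnb1 and 0.707 with Abhd2. Socs1, the lowest of the 6, reached 0.646 with Tnfrsf9, 0.626 with Fosl2 and 0.622 with Igf2r.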

How the data were processed

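Per the labels' protocols, the 6 lung libraries are BD Rhapsody single-cell libraries, sequenced on a DNBSEQ-T7. The authors deposited raw UMI counts per gene and barcode. The submitters' processing notes name builds GRCm39 and mm39, with the counting tool not given in the sources used here. Libraries hold 31589233 to 48641470 UMIs in all.

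Barcodes with at least 500 UMIs, 300 genes and under 20% mitochondrial UMIs were kept. A cell joined 1 of 14 classes when it held at least 2 of its markers and at least 2 more than of any other class; mixed cells fell out, and no clustering or doublet caller was used. From 0 to 6 kept barcodes were shared by a pair of libraries. Counts were summed per class and library, and 9 classes with at least 20 cells in every library were fitted with edgeR 4.0.16 (TMM, filterByExpr, robust quasi-likelihood F test; R 4.3.3), all 6 libraries in 1 fit, with group as the model term. P-values were adjusted by Benjamini-Hochberg over all genes of a class. Calls use 0.05, and the fit was tested on simulated data. With 2 mice per group, p-values speak for the spread between these mice. In each group, a chi-square compared the UMI counts per gene, summed over all kept cells, between the pair of libraries. The value was 134 (SLC+LPS), 202 (LPS) and 30.4 (control) per degree of freedom, more than counting noise. All classes are pooled in it, so differences in the mix of cells enter the value too. Free RNA was estimated from barcodes with 5 to 100 UMIs. It was scaled by 9 genes that leukocytes should lack, and in endothelial cells and fibroblasts by the neutrophil markers instead. Counting error and its own error are not in these estimates.

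The members, the marker lists and the pathway lists were chosen with earlier results of these data known. Pathway genes are named by rule: up to 3 of the smallest p per class and comparison among those that passed. Where a gene so named also passed in the other treated group against control in the same class, that value is given too. The 3 most like genes per member are named among genes averaging at least 20 CPM. Alternatives were DESeq2 1.42.0 and 14 other settings. Values of some pathway genes that count in the totals are not reported here.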

Additional observations from a re-analysis of the deposited data

Results flagged for a closer look

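Pim2 and Cish differed from control in opposite directions in different cell classes, with every library of one group on the same side, and whether the classes differ from each other was not tested. Over all genes of the 9 classes, 23.8% were higher and 28.7% lower than control without overlap in SLC+LPS, and 16.9% and 26.4% in LPS. For Pim2 the log2 difference of SLC+LPS minus control was 2.29 in NK cells and -1.15 in alveolar macrophages. The alveolar macrophage value rests on 10 and 1 UMIs in SLC+LPS and 23 and 32 UMIs in control libraries, and free RNA was expected to give 63.3% to 100% of the SLC+LPS level and 55.7% to 67.8% of the control level. That value was -1.80 without the first SLC+LPS library. For Cish the log2 difference of SLC+LPS minus control was 1.56 in neutrophils, 2.01 in classical monocytes, 1.60 in interstitial macrophages and 1.44 in T cells, against -1.11 in alveolar macrophages. For LPS minus control, Cish stood at 1.15 in neutrophils, 1.41 in classical monocytes and 1.16 in interstitial macrophages, against -1.15 in alveolar macrophages, which was -0.19 without the second LPS library. With free RNA subtracted, Cish was 3.83 in SLC+LPS and 3.35 in LPS neutrophils and 4.69 in SLC+LPS and 4.09 in LPS interstitial macrophages relative to control. Free RNA was expected to give 83.3% and 95.1% of the control level in neutrophils and 84% and 100% in interstitial macrophages. Little control level is left after the subtraction, so the sizes of these subtracted values depend on the prior count of the fit and are no bound. The classical monocyte values rest on 1 UMI in each control library, depend on the prior count of the fit and are no bound. Both treated groups share the 2 control libraries, so the repeat of the direction is not independent.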

How the results depend on the processing

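Of 2256 refitted fold changes of the members over the 15 alternatives, 0 that had passed changed sign, 2016 stayed within the replicate spread or kept their call, 221 moved by more and 19 no longer passed. Pim2 in NK cells passed for LPS minus control in all 15. Socs1 in neutrophils passed in 10 of 15 for each treated group against control, and Cish in neutrophils in 6 of 15 for SLC+LPS minus control. Counts below are in the order SLC+LPS minus control, LPS minus control, SLC+LPS minus LPS; the causes were not tested beyond what each setting removes. Among all genes, DESeq2 called 2278, 1783 and 31, no low-count filter 3961, 4343 and 313, the replicate block 606, 617 and 1, and the stricter gate 330, 692 and 15, from fewer classes. For SLC+LPS minus LPS, all genes gave 2 with the looser gate, 2 without the top 5% of UMIs and 0 with free RNA subtracted. Among pathway genes, DESeq2 called 32, 31 and 1, no filter 50, 65 and 12, the replicate block 6, 10 and 0, the stricter gate 1, 9 and 0, and free RNA subtraction 6, 7 and 0. Among members, RLE factors, the stricter cell filter and both gates gave 1 for SLC+LPS minus control, the replicate block 0, and no filter 4, with 4 for LPS minus control. Leaving out 1 library gave 57 to 5517, 103 to 6984 and 1 to 4621 calls among all genes, 0 to 60, 0 to 90 and 0 to 58 among pathway genes, and 0 to 5, 1 to 12 and 0 to 8 among members; the highest counts came without the first LPS library, which leaves the second as the only LPS sample, assumed to vary like the other groups. Replicate numbers do not pair the mice: same-numbered libraries correlated at -0.233 to 0.0982 over classes. Depth limits the lower members: Cish in T cells rests on 17 to 29 UMIs a library, and Pim2 in alveolar macrophages on 0 to 44.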
